A study of Mus musculus with 6 samples.

Results

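The translation initiation factors (Eif genes) and elongation factors (Eef genes) were examined in mouse B cells with and without the arginine methyltransferase gene Prmt1. Members were all genes of the deposited count table whose symbol begins with Eif or Eef and a digit, leaving out the eIF2 kinases (Eif2ak) and symbols with -ps, the mark of a pseudogene. The rule found 60 of the 39017 genes in the table. By name, 51 were initiation factors, 8 were elongation factors and 1, Eif2c5, carries an old Argonaute-type name and had no counts. The rule used names only and no measured value.

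Initiation factors bring the initiator tRNA to the small ribosomal subunit, attach that subunit to the capped end of an mRNA and let it scan to the start codon. eIF2 carries the initiator tRNA, eIF2B recharges eIF2 with GTP, eIF4F binds the cap and unwinds the mRNA, and eIF3 is the large scaffold between them. Elongation factors then deliver each further tRNA (eEF1) and move the ribosome along the mRNA (eEF2). Activated B cells enlarge and make much protein, and both mTORC1 and Myc are known to act on this machinery.

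Splenic B cells of C57BL6/J mice had been grown for 3.5 days as induced germinal centre B cells (iGBs) on 40LB feeder cells, which supply CD40L and BAFF, with IL-4. The Control iGBs came from 3 Cγ1-cre mice and the Prmt1-null iGBs from 3 Prmt1 F/F Cγ1-cre mice, with 2 females and 1 male in each group and 1 library per mouse, so both groups carried the Cre. Cγ1-cre acts once B cells are activated and transcribe the γ1 locus, so the deletion followed activation in culture. The labels give 5 ng/ml IL-4 and the methods 1 ng/ml, and the ages of the mice are not given in the sources used here. The comparison asks which translation factor mRNAs differed in level between cultures with and without Prmt1.

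Between 45343250 and 62774232 reads were counted in a library, and the totals of the groups overlapped. The targeted gene, Prmt1, had 3964, 3924 and 4838 normalized counts in Control and 1745, 1478 and 1477 in Prmt1-null iGBs, a log2 fold change of −1.44 ± 0.095 (SE, n = 3 per group). Its counts in Prmt1-null iGBs were thus 36.9% of the Control mean, and the source of these remaining counts was not tested. A normalized count is the raw count scaled to the mean effective library size, and the test, unless another is named, was the quasi-likelihood test of edgeR, adjusted by Benjamini-Hochberg over 18268 genes. Summed over 6 B cell markers, Control libraries held 5971 to 6340 CPM (counts scaled to library size) and Prmt1-null libraries 6323 to 6652. The 5 plasma cell markers held 966 to 1086 CPM in Control and 1105 to 1195 in Prmt1-null libraries, with no overlap. The plasma cell markers differed among themselves. Xbp1 and Irf4 had mean normalized counts of 18773 and 27160 in Control and 22985 and 30386 in Prmt1-null libraries, Prdm1 had 1497 and 1823, Igj had 8988 and 8441, and Sdc1 only 79.2 and 114. The 6 feeder fibroblast markers held 15.1 to 19.1 against 18.9 to 23.6 CPM, the 3 myeloid markers 3.51 to 5.21 against 3.68 to 5.59, and the 4 T cell markers at most 1.93 CPM. None of these marker genes passed the threshold, no list had a marker at 3 counts or fewer in all libraries, and the part of the plasma cell and feeder markers in the results that follow was not tested. In these bulk cultures, fewer cells of a type and less RNA per cell cannot be told apart.

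Few of these mRNAs passed the threshold by edgeR, at a share not below that of all tested genes. Of the 60 members, 56 were expressed enough to test and 2 passed the threshold, an adjusted p under 0.05 with a mean normalized count over 100. Eif4g3, which encodes an eIF4G scaffold of the cap-binding complex, fell, and Eif2s2, which encodes the beta subunit of eIF2, rose. Over all tested genes 1.18% passed (0.58% higher and 0.602% lower in Prmt1-null iGBs), or 1.65% of the 13092 genes with a mean over 100 normalized counts, where all tested members lie. The members' share was 3.57%, or 2 genes where the share of 1.65% would give 0.924 of a gene. DESeq2 called 3 of the 56 (5.36%), a share near its 5.33% of all genes.

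The fitted differences of the members were small. The median log2 fold change was 0.04, beside −0.001 over all tested genes. On the higher side in Prmt1-null iGBs were 39 of the 56 members, beside 9114 of the 18268 tested genes. The median size of the difference, whatever its sign, was 0.06 for the members and 0.14 for all tested genes. It was 0.11 for genes with a mean count over 100, and 0.10 for the 9856 genes at or above the lowest tested member's mean. This size thus fell as the counts rose, and these sets were not matched to the members by count. The part of count level in the members' smaller median was not tested. Within 0.1 of zero lay 38 of the 56 members, 6751 of the 18268 tested genes and 5101 of those 9856. The members had mean normalized counts of 415 to 437317 and standard errors of 0.052 to 0.176 (median 0.069). At an unadjusted p under 0.05 there were 8 members (14.3%), 6 higher and 2 lower, where 13.5% of all tested genes reached it. The 3 Prmt1-null libraries were all above the 3 Control libraries for 8 members (14.3%, beside 9.95% of all genes) and all below for 2 (3.57%, beside 9.92% of all genes).

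**Figure D1:**
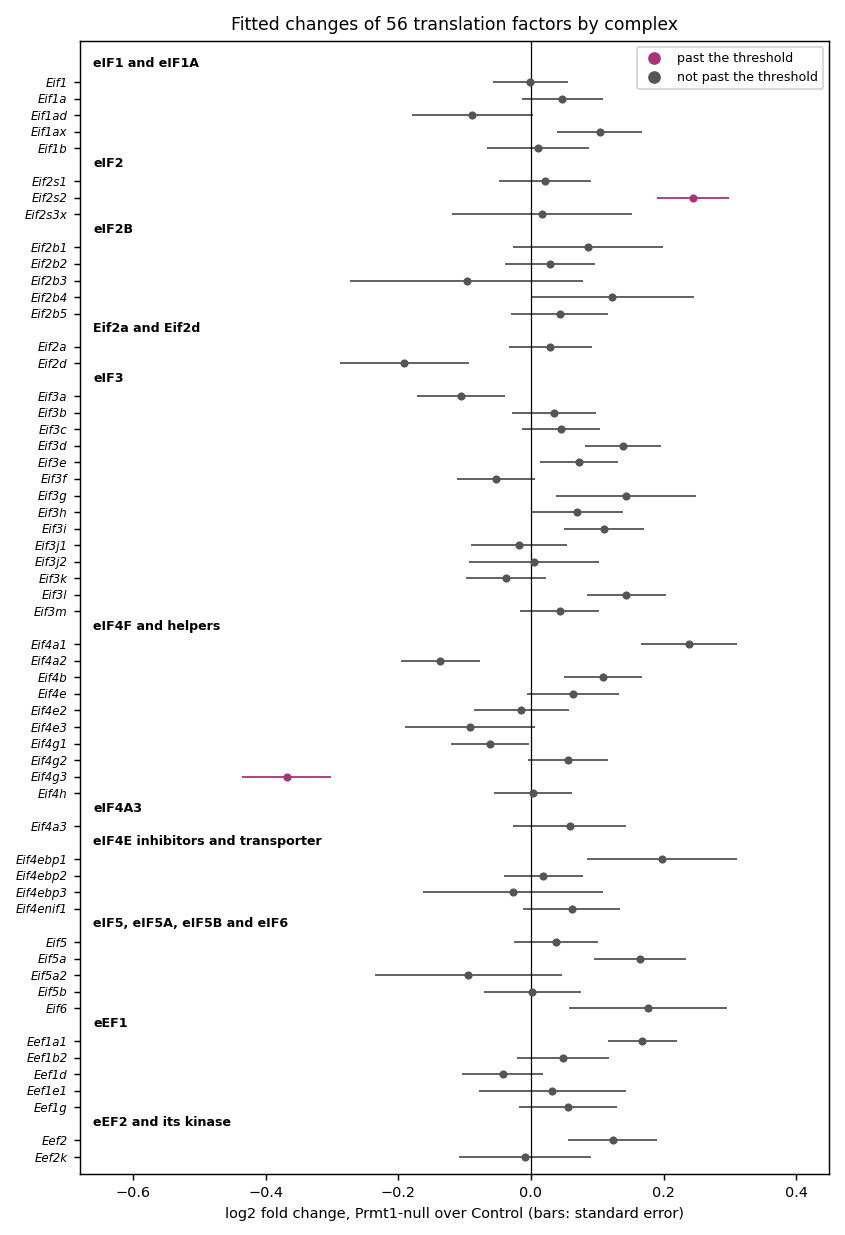
Fitted log2 fold change of each of the 56 tested members, Prmt1-null over Control, grouped by factor complex; points are estimates from 3 libraries per group and bars are standard errors. Most members lie within 0.1 of zero, and only Eif4g3 at −0.37 and Eif2s2 at 0.24 (purple) passed the threshold.

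The 4 members without a test were Eif4e1b and Eif2c5, with no counts in any library, Eef1a2, with at most 4 counts in a library, and Eif2s3y, because chromosome Y was left out of the test. Eif4e1b, an oocyte form of the cap-binding protein, and Eef1a2, the muscle and nerve form of eEF1A, are known from other tissues. A count of 0 allows up to 3 counts in a library, which is 0.0478 to 0.0662 CPM here, for counting error only.

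Levels per length showed the order of the machinery. On the RPKM scale (the count per kilobase of exon at a common library size, with the union of all annotated exons as the length), Eef1a1, the tRNA carrier of elongation, stood at 2979 ± 160 in Control iGBs and Eef2, the translocase, at 1426 ± 145 (SD, n = 3). The highest initiation factors were Eif3h at 281 and Eif3f at 178, both eIF3 subunits, and then Eif3e at 108. The eEF1 exchange subunits Eef1g and Eef1b2 were at 112 and 103. The lowest of the tested members was Eif2b3, an eIF2B subunit, at 1.19. With the longest transcript as the length, Eif3e stood at 177, above Eef1g at 156, and Eif2b3 at 2.06. Together the members took 2.01, 2.12 and 2.16% of all counts in Control and 2.2, 2.26 and 2.26% in Prmt1-null libraries. Eef1a1 and Eef2 took 1.13 to 1.3% in Control and 1.32 to 1.37% in Prmt1-null libraries, whereas the remaining members took 0.863 to 0.892% and 0.879 to 0.908%, which overlap.

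**Figure D2:**
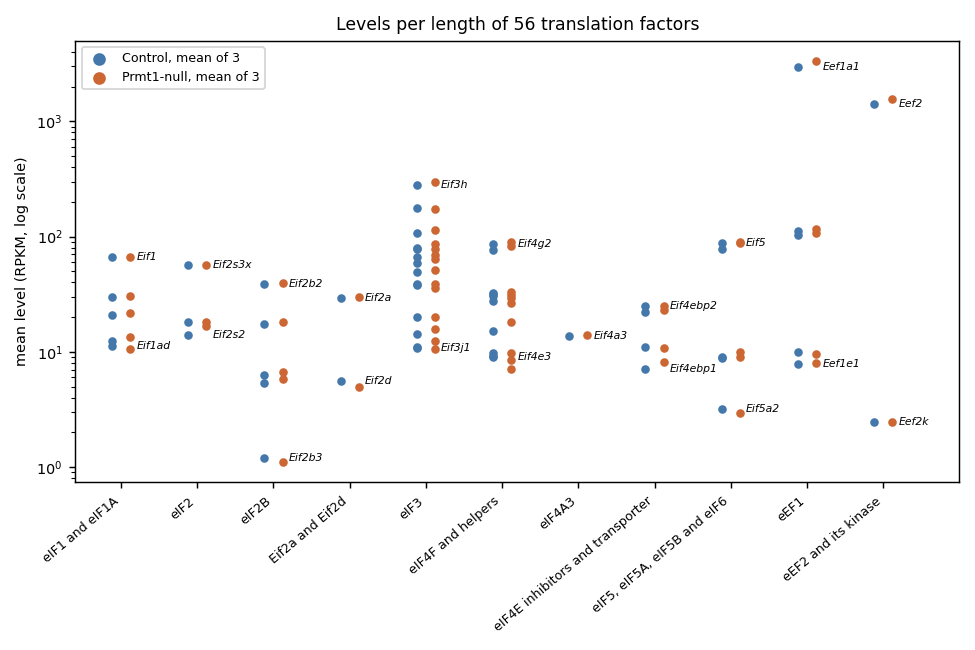
Mean RPKM of each tested member in 3 Control (blue) and 3 Prmt1-null (orange) libraries on a log axis, by factor complex, with the highest and lowest member of each complex in Control named. The complexes span similar ranges in both groups, with Eef1a1 at 2979 and 3347 and Eef2 at 1426 and 1553 far above the rest.

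Promoter windows of the members were compared for the E-box CACGTG, the motif bound by Myc and by other factors of its class. The windows of RefSeq (GRCm38.p6) ran from 250 bases before to 50 after an annotated start, and 46 of the 60 members had at least 1. The motif reads the same on both strands. It was found for 12 of the 46 members (26.1%), in at least 1 of their windows, of which there were 60. Of all 32851 windows 7.15% held it, a share of windows and not of genes. Among tested genes with a window, 27.9% of the members and 11.3% of all genes held it, and a gene with several windows counted if any did. The 12 were Eif1b, Eif3a, Eif3f, Eif3k, Eif4a1, Eif4e, Eif4g1, Eif4h, Eif5a, Eif5a2, Eef2 and Eef2k. The median log2 fold change was −0.003 for these 12 and 0.04 for the 31 tested members without the motif, and neither Eif2s2 nor Eif4g3 held it. A match describes these letters only and does not show that a factor binds there.

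The 250 bases before the start are shown for Eif2s2, the member that rose, for the helicase pair Eif4a1 and Eif4a2, which leaned in opposite directions, and for Eif4g1 and Eef2 as members with an E-box near the start. Each is written 5′ to 3′ on the strand of the gene, and capitals mark the E-box. They lie at chr2:154892907-154893156 (minus strand), chr11:69672424-69672673 (minus), chr16:23107218-23107467 (plus), chr16:20672477-20672726 (plus) and chr10:81176381-81176630 (plus).
Eif2s2: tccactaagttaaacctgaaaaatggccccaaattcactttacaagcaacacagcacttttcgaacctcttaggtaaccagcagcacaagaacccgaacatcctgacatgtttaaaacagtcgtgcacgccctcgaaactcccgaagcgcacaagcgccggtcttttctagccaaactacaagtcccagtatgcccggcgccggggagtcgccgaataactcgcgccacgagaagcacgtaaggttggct
Eif4a1: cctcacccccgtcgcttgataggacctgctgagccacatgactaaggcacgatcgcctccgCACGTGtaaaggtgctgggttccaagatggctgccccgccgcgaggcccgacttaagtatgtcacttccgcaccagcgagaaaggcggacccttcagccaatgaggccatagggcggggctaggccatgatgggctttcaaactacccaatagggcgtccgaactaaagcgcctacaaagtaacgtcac
Eif4a2: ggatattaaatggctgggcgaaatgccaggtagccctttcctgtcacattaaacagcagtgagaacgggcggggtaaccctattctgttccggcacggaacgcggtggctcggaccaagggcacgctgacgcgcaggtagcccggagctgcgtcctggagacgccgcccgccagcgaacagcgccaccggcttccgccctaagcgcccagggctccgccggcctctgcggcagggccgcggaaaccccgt
Eif4g1: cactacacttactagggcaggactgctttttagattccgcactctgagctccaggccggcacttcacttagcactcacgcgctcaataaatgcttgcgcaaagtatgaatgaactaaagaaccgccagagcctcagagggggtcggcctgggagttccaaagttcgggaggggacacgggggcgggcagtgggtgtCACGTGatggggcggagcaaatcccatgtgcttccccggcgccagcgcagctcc
Eef2: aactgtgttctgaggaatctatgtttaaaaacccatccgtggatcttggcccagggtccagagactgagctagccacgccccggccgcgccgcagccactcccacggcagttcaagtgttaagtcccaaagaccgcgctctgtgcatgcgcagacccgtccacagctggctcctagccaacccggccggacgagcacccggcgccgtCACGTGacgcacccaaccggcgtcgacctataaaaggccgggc

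Counted from the start, the E-box began at position −189 in Eif4a1, −54 in Eif4g1 and −43 in Eef2. Eif4g1 had a further E-box at position 16, after the start. Its window precedes a RefSeq start that lies within the GENCODE gene (chr16:20668313-20692884), downstream of the gene's first annotated base. The windows of Eif2s2 and Eif4a2 held none. Of the printed bases of Eif2s2, Eif4a2 and Eif4g1, 29, 24 and 4 lay in GENCODE exons of the same gene. The window of Eif4g3 lay wholly within annotated exons of the gene and is not shown.

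eIF2, the carrier of the initiator tRNA, has an alpha subunit (Eif2s1) that stress kinases phosphorylate, a beta subunit (Eif2s2) and a gamma subunit (Eif2s3x on the X and Eif2s3y on the Y chromosome) that holds GTP and the tRNA. Eif2s2 (chr2:154871410-154892935, minus strand) had 5328, 5304 and 5194 normalized counts in Control and 6112, 6355 and 6282 in Prmt1-null libraries. All 3 Prmt1-null libraries were above all Control libraries, and the gap between the groups was wider than the range within either. It rose by 1.18-fold (log2 fold change 0.24 ± 0.054 SE, adjusted p = 0.0456, n = 3 per group, edgeR). The call was near the threshold: the adjusted p ranged from 0.0608 to 0.219 when any 1 library was left out, with log2 fold changes of 0.23 to 0.26, and was 0.0538 with sex as a covariate and 0.0561 with limma-voom. The other subunits did not pass, with log2 fold changes of 0.02 ± 0.069 for Eif2s1 and 0.02 ± 0.136 for Eif2s3x (SE).

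Eif2s3x, whose error was the widest of the eIF2 genes, differed between the sexes in both groups. The male libraries had 9490 (Control replicate 1) and 9439 (Prmt1-null replicate 3) normalized counts, and the 4 female libraries had 12409 to 13884. Eif2s3y, its Y-linked copy, had 4290 and 5053 normalized counts in the same male libraries, or 31.1 and 34.9% of the raw counts of the pair. The sum of both genes was 12409 to 13889 in Control and 13343 to 14493 in Prmt1-null libraries, so the male libraries no longer stood below the others. The log2 fold change of Eif2s3x was −0.12 without the male Control library and 0.17 without the male Prmt1-null library, beside 0.02 with all 6. Without 1 of the female libraries it was 0.14 (Control replicate 2), 0.05 (Control replicate 3) and −0.06 (Prmt1-null replicate 1 or 2), and it did not pass the threshold in any of these fits. Eif1ax, the other X-linked initiation factor and a scanning factor of the eIF1A type, had 3642 and 4046 normalized counts in the male and 3563 to 4085 in the female libraries.

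**Figure D3:**
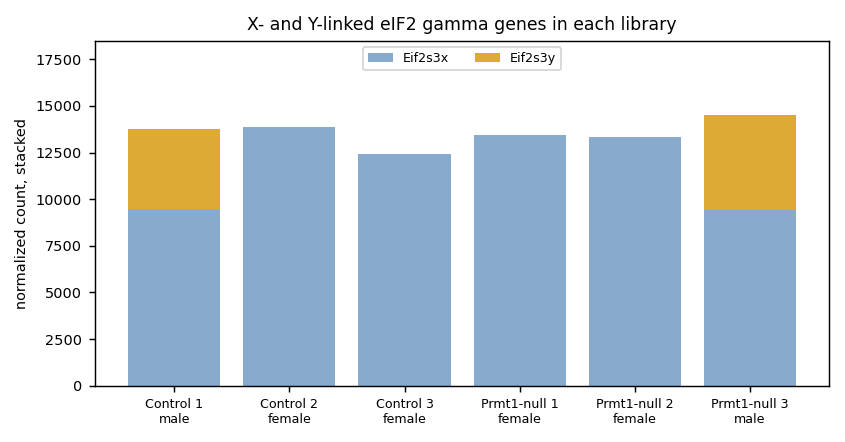
Normalized counts of Eif2s3x (blue) and Eif2s3y (yellow), stacked, in each of the 6 libraries with the sex of the mouse. Both male libraries have less Eif2s3x (9490 and 9439) than the 4 female libraries (12409 to 13884) and have Eif2s3y in addition.

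eIF2B recharges eIF2 with GTP and is the site at which phosphorylated eIF2 blocks initiation. None of its 5 subunit genes passed the threshold, and their log2 fold changes ran from −0.10 for Eif2b3 to 0.12 ± 0.123 (SE) for Eif2b4, the smallest p of the group. That of Eif2b4 was 0.04 without Control replicate 1, 0.05 without Prmt1-null replicate 2 and 0.22 without Control replicate 3. Levels per length differed widely between subunits of the 1 complex, from 1.19 RPKM for Eif2b3 to 39.1 for Eif2b2 in Control iGBs. Eif2a and Eif2d encode separate proteins that can bring initiator tRNA to particular mRNAs. Eif2d had 2188, 2270 and 2421 normalized counts in Control and 1989, 2294 and 1741 in Prmt1-null libraries, and the groups overlapped (log2 fold change −0.19 ± 0.098 SE, adjusted p = 0.423 by edgeR). Its log2 fold change was −0.29 without Prmt1-null replicate 2 and −0.10 without Prmt1-null replicate 3. Eif2d shares exon positions with Rassf5 on the opposite strand.

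eIF1 and eIF1A hold the small subunit open while it scans for the start codon. All 5 genes grouped here by name were tested and none passed. Their log2 fold changes ran from −0.09 for Eif1ad, placed here by its symbol only, to 0.10 ± 0.064 (SE) for Eif1ax. Eif1 had 3.9 to 4.25 times the raw counts of its paralog Eif1b in Control and 3.86 to 4.22 times in Prmt1-null libraries. The Eif1a counts were 1.23 to 1.38 times those of Eif1ax in Control and 1.2 to 1.31 times in Prmt1-null libraries. Both ratios overlapped between the groups.

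The 14 eIF3 genes did not pass the threshold, and 10 were on the higher and 4 on the lower side without Prmt1. Their median on the log2 scale was 0.04, and 0.07 without Control replicate 1 or without Prmt1-null replicate 2. Eif3d, whose protein can bind the cap of some mRNAs directly, had 3920, 4004 and 3925 normalized counts in Control and 4255, 4428 and 4362 in Prmt1-null libraries, without overlap (log2 fold change 0.14 ± 0.057 SE, adjusted p = 0.291, edgeR). Eif3l had 15299, 16138 and 15846 against 16792, 17406 and 18040, also without overlap (0.14 ± 0.059 SE, adjusted p = 0.296, edgeR). Eif3e and Eif3i were the other eIF3 genes with all Prmt1-null libraries above all Control libraries, at log2 fold changes of 0.07 and 0.11. Neither Eif3d nor Eif3l was among the called members under any alternative. Eif3a, the largest subunit and the base of the scaffold, had a log2 fold change of −0.11 ± 0.066 (SE), the lowest of the 14. The remaining members were Eif3b at 0.03, Eif3c at 0.05, Eif3f at −0.05, Eif3g at 0.14, Eif3h at 0.07, Eif3k at −0.04 and Eif3m at 0.04 on the same log2 scale. Eif3j1 and Eif3j2, near-identical copies between which reads may have been split, were at −0.02 and 0.005, and their count ratio was 1.2 to 1.47 in Control and 1.25 to 1.42 in Prmt1-null libraries.

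eIF4F is made of the cap-binding protein eIF4E, the scaffold eIF4G and the helicase eIF4A, helped by eIF4B and eIF4H. Eif4g3 (chr4:137993022-138208508, plus strand) had 5934, 5410 and 5480 normalized counts in Control and 4646, 4348 and 4034 in Prmt1-null libraries. Every Prmt1-null library was below every Control library. It fell to 77.4% of the Control mean (log2 fold change −0.37 ± 0.067 SE, adjusted p = 0.0187, n = 3 per group, edgeR), and no other gene's exons overlap its own in the annotation. It was called under each of the 7 other ways of fitting all 6 libraries. Without Control replicate 1 or 2 or Prmt1-null replicate 2 or 3, its adjusted p was 0.0546 to 0.107, with log2 fold changes of −0.39 to −0.32.

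The paralog Eif4g1, the main eIF4G scaffold, had 10777, 11468 and 11234 against 11044, 10826 and 10208 normalized counts, which overlap (log2 fold change −0.06 ± 0.059 SE). Eif4g2, an eIF4G-like protein that does not bind eIF4E, was at 0.06 ± 0.060 (SE) with 46652 to 51116 normalized counts in all libraries. The raw counts of Eif4g1 were 1.82, 2.12 and 2.05 times those of Eif4g3 in Control and 2.38, 2.49 and 2.53 times in Prmt1-null libraries. The 3 ratios of the Prmt1-null libraries were thus all above those of Control. This ratio shares its Eif4g3 counts with the call and is given as a description.

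The helicase paralogs leaned in opposite directions without passing the threshold. Eif4a1, the main eIF4A helicase, had 3271, 3923 and 3829 normalized counts in Control and 4306, 4205 and 4499 in Prmt1-null libraries (log2 fold change 0.24 ± 0.073 SE, adjusted p = 0.145, edgeR). Eif4a2 had 9454, 9917 and 9182 against 8858, 8888 and 8230 (−0.14 ± 0.060 SE, adjusted p = 0.333, edgeR). Neither gene's groups overlapped. The Eif4a1 to Eif4a2 ratio of raw counts was 0.346, 0.396 and 0.417 in Control and 0.486, 0.473 and 0.547 in Prmt1-null libraries. It uses the same counts as the 2 genes, so its separation follows from theirs and is given as a description. With 3 libraries in each group an exact permutation test cannot give a p under 0.1.

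Reads of Eif4a1 may have been divided with a near-identical sequence. The pseudogene row Eif4a-ps4, left out by the rule, had 9838, 10466 and 11105 normalized counts in Control and 11331, 12520 and 12039 in Prmt1-null libraries, more than Eif4a1 itself in each library. Its log2 fold change was 0.19 ± 0.065 (SE, adjusted p = 0.191, edgeR). The other -ps rows left out by the rule were at −0.17 (Eif3s6-ps1), 0.0066 (Eif3s6-ps2) and 0.0075 (Eif5al3-ps). Sharing of reads with members was not tested for any of these rows. Eif4a1 and Eif4a-ps4 together had 13108 to 14934 against 15637 to 16725 normalized counts, and 1.39 to 1.63 times the Eif4a2 count in Control beside 1.77 to 2.01 times in Prmt1-null libraries, values that follow from those of the single genes. Eif4a2 shares exon positions with Rfc4 on the opposite strand, which had a log2 fold change of −0.08 ± 0.127 (SE), and with small RNAs such as Snora81 and Snord2 on its own strand.

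**Figure D4:**
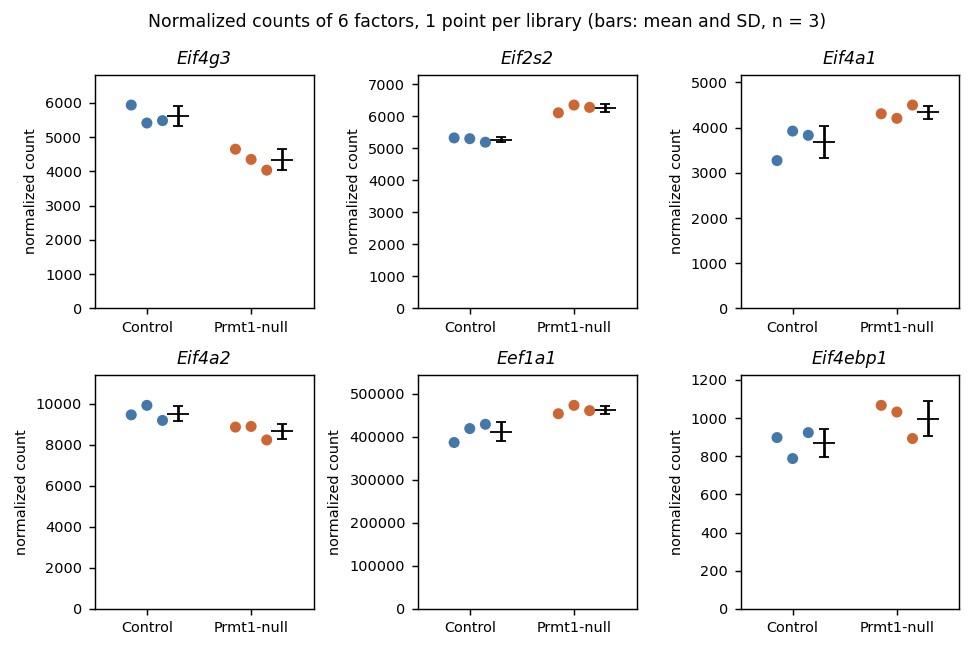
Normalized counts of Eif4g3, Eif2s2, Eif4a1, Eif4a2, Eef1a1 and Eif4ebp1 in each library (points; Control blue, Prmt1-null orange), with mean and SD of 3 libraries beside them and axes from 0. The groups do not overlap for the first 5 genes, of which Eif4g3 and Eif2s2 passed the threshold, and they overlap for Eif4ebp1.

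**Figure D5:**
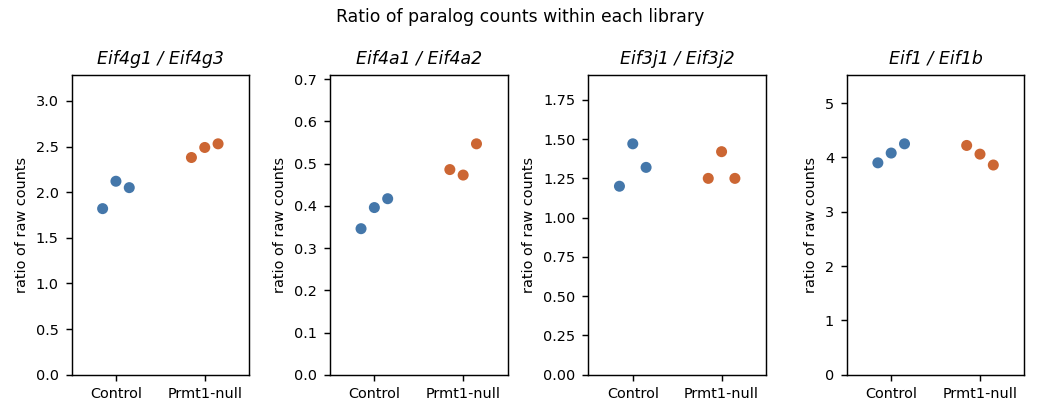
Ratio of the raw counts of 2 paralogs within each library for 4 pairs, with axes from 0 (Control blue, Prmt1-null orange). The ratios of Eif4g1 to Eif4g3 (1.82 to 2.12 against 2.38 to 2.53) and of Eif4a1 to Eif4a2 (0.346 to 0.417 against 0.473 to 0.547) do not overlap between the groups, while those of Eif3j1 to Eif3j2 and Eif1 to Eif1b do.

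The cap-binding genes did not pass the threshold. Eif4e, which binds the cap and is the limiting subunit of eIF4F in many cells, had 11381, 10137 and 10286 normalized counts in Control and 10203, 11293 and 11733 in Prmt1-null libraries, which overlap (log2 fold change 0.06 ± 0.069 SE). Eif4e2, whose protein binds the cap without joining eIF4G, was at −0.01 ± 0.072 and Eif4e3 at −0.09 ± 0.098 (SE). The Eif4e counts were 2.3 to 3.06 times those of Eif4e2 in Control and 2.63 to 2.89 times in Prmt1-null libraries, and 7.86 to 9.74 and 8.59 to 10.2 times those of Eif4e3. The helicase helper Eif4b had 18513 to 19590 normalized counts in Control and 20092 to 20930 in Prmt1-null libraries, without overlap (0.11 ± 0.059 SE, adjusted p = 0.454, edgeR). Eif4h was at 0.003 ± 0.059 (SE). Eif4a3, the helicase relative in the exon junction complex, was at 0.06 ± 0.085 (SE).

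The 4E-binding proteins hold eIF4E away from eIF4G until mTORC1 phosphorylates them. Eif4ebp1 had 898, 788 and 924 normalized counts in Control and 1067, 1032 and 893 in Prmt1-null libraries. The third Prmt1-null library fell within the Control range, so the groups overlapped (log2 fold change 0.20 ± 0.114 SE, adjusted p = 0.487, edgeR). The log2 fold change of Eif4ebp1 was 0.13 without Control replicate 2 and 0.27 without Prmt1-null replicate 3. Eif4ebp2, the most abundant of the 3 by counts, was at 0.02 ± 0.060 and Eif4ebp3 at −0.03 ± 0.135 (SE). Per length, Eif4ebp2 stood at 24.9, Eif4ebp3 at 11 and Eif4ebp1 at 7.15 RPKM in Control iGBs. Eif4enif1, the eIF4E transporter, was at 0.06 ± 0.073 (SE).

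Among the factors that join the subunits or act after joining, none of 5 passed the threshold. Eif5a, the hypusine-bearing factor that helps the ribosome through difficult peptide bonds, had 9440, 10383 and 11054 normalized counts in Control and 11609, 10923 and 12077 in Prmt1-null libraries. The second Prmt1-null library lay below the third Control library (log2 fold change 0.16 ± 0.069 SE, adjusted p = 0.303, edgeR). Its paralog Eif5a2 was at −0.09 ± 0.141 (SE) and had fewer counts, with a ratio of Eif5a to Eif5a2 of 8.76 to 15.2 in Control and 13.2 to 15.4 in Prmt1-null libraries. The log2 fold change of Eif5a2 ranged from −0.22 without Control replicate 3 to 0.07 without Control replicate 1 when 1 library was left out, and it did not pass the threshold in any of these fits. Eif6, which keeps the large subunit from joining early, was at 0.18 ± 0.119, Eif5 at 0.04 ± 0.064 and Eif5b at 0.002 ± 0.073 (SE).

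Of the elongation factors, 7 of 8 were tested and none passed. Eef1a1, the tRNA carrier, had 386908, 419393 and 429304 normalized counts in Control and 453907, 473389 and 460999 in Prmt1-null libraries. All Prmt1-null libraries were above all Control libraries (log2 fold change 0.17 ± 0.052 SE, adjusted p = 0.151, edgeR), and the adjusted p was 0.0424 with DESeq2 and 0.0438 without Control replicate 3. Eef2, the translocase, had 238298, 259121 and 291177 against 287458, 293494 and 277875, and these overlap (0.12 ± 0.067 SE, adjusted p = 0.459, edgeR). Its log2 fold change was 0.06 without Control replicate 1 and 0.20 (adjusted p = 0.0618, edgeR) without Control replicate 3. Eef2k, the kinase that inactivates eEF2, was at −0.009 ± 0.099 (SE). The exchange subunits of eEF1 were at 0.05 for Eef1b2, −0.04 for Eef1d and 0.06 for Eef1g, and Eef1e1, a subunit of the tRNA synthetase complex, was at 0.03 on the log2 scale.

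A wider list of 51 translation genes held regulators and partners of these factors, termination and recycling factors, and mitochondrial and selenocysteine factors. None of the 50 that were tested passed the threshold, 24 on the higher and 26 on the lower side, with a median of −0.005 on the log2 scale. By edgeR 8 of the 50 (16%) had an unadjusted p under 0.05, 4 higher and 4 lower, beside the 13.5% of all tested genes. DESeq2 called 5 (10%), beside 5.33% of all genes to which it gave an adjusted p. The 4 eIF2 kinases (Eif2ak1 to Eif2ak4) ran from −0.14 to −0.03 on the log2 scale. Ppp1r15a and Ppp1r15b, which direct the phosphatase that reverses them, were at −0.17 and −0.005. The 12 genes of mTORC1 and MNK control ran from −0.15 to 0.27.

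The wider genes with the smallest p were chosen after their values were seen. Mknk2, a kinase of eIF4E, had 12342, 12967 and 13483 normalized counts in Control and 15580, 15763 and 14519 in Prmt1-null libraries (log2 fold change 0.24 ± 0.062 SE, adjusted p = 0.0826, edgeR). Pabpc4, a poly(A)-binding protein, had 3734, 4184 and 4164 against 4735, 4818 and 4642 (0.23 ± 0.063 SE, adjusted p = 0.0992, edgeR), while the more abundant Pabpc1 was at −0.02 ± 0.051 (SE). Tufm, the mitochondrial tRNA carrier, was at 0.35 ± 0.098 (SE, adjusted p = 0.109, edgeR). Pdcd4, an inhibitor of eIF4A, had 8003, 8460 and 7699 against 7138, 6325 and 7209 normalized counts (−0.23 ± 0.066 SE, adjusted p = 0.127, edgeR), and Ddx3x, an RNA helicase of initiation, had 17949, 20244 and 18477 against 16328, 16848 and 15393 (−0.22 ± 0.066 SE, adjusted p = 0.133, edgeR). Over the whole list, all Prmt1-null libraries were above all Control libraries for 5 genes and below for 6 of the 50, where 9.95 and 9.92% of all genes did so, and a small p nearly fixes such a separation.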

How the data were processed

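RNA had been extracted from iGBs after the feeder cells were depleted, and libraries were made with a stranded kit after depletion of rRNA. The authors trimmed reads (Trimmomatic 0.32), aligned them to mm10 (STAR 2.3.0e) and deposited raw counts per Ensembl gene over exons (featureCounts 1.4.4). The strand setting is not given in the sources used here, so members with a gene on the opposite strand over their exons (13 of 60) are uncertain. Alignments to at most 2 places were kept, which lets near-identical copies share reads.

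Samples were grouped by the labels' genotypes. The 398 chromosome Y genes were left out of the test. Counts were filtered by filterByExpr (minimum count 10), normalized by TMM and tested in edgeR 4.0.16 (R 4.3.3) by the quasi-likelihood test with Benjamini-Hochberg adjustment over 18268 genes. A standard error is the log2 fold change over the square root of F. Total counts were 45343250 to 62774232 per library, and 3 mice per group set the precision. Exon lengths and coordinates came from GENCODE M21. Alternatives were DESeq2 1.42.0, limma-voom (limma 3.58.1), median-of-ratios size factors, no low-count filter, a replicate block, sex as a covariate, chromosome Y genes kept, a threshold without the mean count, each library omitted in turn, the block and sex fits on the 18268 genes (chosen after seeing the data), and the longest transcript as length. Named genes were all called members, the member of each complex with the smallest p, the Eif4ebp genes, paralog pairs and called genes of the wider list, and the other members were given with 1 value or in a count. Eif3l, Eif4b, Eif4a-ps4 and the named genes of the wider list, none of them called, were chosen after their values were seen. The members and lists were chosen with earlier results of these data known. Igj was used for the marker Jchain. The methyltransferases of eEF1A and eEF2 stand in the table under other symbols, which the rule does not cover.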

Additional observations from a re-analysis of the deposited data

Results flagged for a closer look

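Eif2s3y, which the comparison left out with chromosome Y, had 3531 raw counts in Control replicate 1 and 5346 in Prmt1-null replicate 3, the 2 libraries labelled male. It also had 6 raw counts in Control replicate 2, labelled female, above the 3 counts taken as detected, or 0.0379% of the Eif2s3x and Eif2s3y counts of that library, and 0 in the other female libraries. A fit with a sex by genotype term called 0 of the 56 members at an adjusted p under 0.05 (edgeR, smallest adjusted p 0.573), beside 28 of the 18268 genes, and 6 at an unadjusted p under 0.05, where 8.09% of all genes reached it, and rests on 1 male library per group.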

How the results depend on the processing

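The count of 2 called members (3.57%, beside 1.18% of all genes) was 1 (1.79%) with limma-voom, with sex as a covariate and with the replicate block, where Eif4g3 remained and Eif2s2 did not (adjusted p = 0.0872 with the block). Over all genes these fits called 1.36, 1.47 and 0.775%. The count ranged from 0 to 2 when each library was left out (0.166 to 1.79% of all genes), with 0 without Control replicate 1 or 2 or Prmt1-null replicate 2 or 3. It was 3 with DESeq2, which added Eef1a1 (5.36% of the members beside 5.33% of all genes), and 3 without the low-count filter, which added Eif4a1 (adjusted p = 0.029, 5.26% beside 2.63%). Same-numbered libraries came from different mice and their deviations correlated by −0.0716, 0.0482 and −0.0772. These values cannot show whether same-numbered cultures shared a day or batch. The 216 called genes were 148 in the fit with the block. The low-count filter follows the design, so the fits with the block or sex tested 19107 genes and those with a library left out 18713 to 18967, in place of 18268. On the same 18268 genes, a choice made after seeing the data, the block gave 151 called genes and sex as a covariate 283 (280 with its own filter), each with 1 called member, Eif4g3. Over all genes, 706 were called with DESeq2, 675 without the low-count filter and 31 to 340 with a library left out. The wider translation genes had 5 calls with DESeq2 (10% of those with an adjusted p, beside 5.33% of all genes), 4 without the filter (7.84% beside 2.63%) and 1 with sex as a covariate (2.0% beside 1.47%, or 1.55% on the same genes), in place of 0. No log2 fold change of a called member changed sign in any fit, and that of Prmt1 ran from −1.52 to −1.33. With the longest transcript as the length, the Control level of Eif4a2 moved from 32.2 to 63.4 RPKM and that of Eef1a1 from 2979 to 4140. The causes of these shifts were not tested. The 3 mice per group and standard errors near 0.069 limit what could be called.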
